A study of Mus musculus with 4 samples.

Results

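Galectins are sugar-binding proteins that recognise beta-galactosides on glycoproteins and glycolipids. They are made without a signal peptide, act inside the cell and leave it by an unconventional route. Outside the cell they cross-link surface glycoproteins, and inside it several of them bind glycans exposed by damaged endosomes and lysosomes. In injured muscle, galectin-1 and galectin-3 are known as products of myogenic cells, fibroblasts and macrophages, and galectin-3 is widely used as a marker of phagocytic macrophages. The 5 genes described here were Lgals1, which encodes the dimeric galectin-1, Lgals3, which encodes the chimera-type galectin-3, Lgals8 and Lgals9, which encode the tandem-repeat galectins 8 and 9, and Lgals3bp. Lgals3bp encodes a secreted glycoprotein that galectins bind and is not itself a galectin. They were taken by gene symbol, and all 5 were present among the 32285 genes of each count matrix.

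Mononuclear cells of skeletal muscle were profiled by single-cell RNA-seq with a 3′ droplet kit, from mice 14 weeks old. One genotype was mdx5cv, a dystrophin-mutant strain used as a model of Duchenne muscular dystrophy. The other was mdx5cv/Ccr2-/-, which carries the same dystrophin mutation and also lacks Ccr2, the chemokine receptor that inflammatory monocytes use to leave the bone marrow and enter tissue. Quadriceps and diaphragm were taken from each, giving 4 groups of 1 library, all of them dystrophic, so no healthy muscle enters any value below. The number of animals behind a library was not given. With 1 library per group there is no replicate check: differences between groups compare these libraries, no p-value is given, and every 95% interval covers counting error only. Where one value per library is given, the order is quadriceps of mdx5cv, quadriceps of mdx5cv/Ccr2-/-, then diaphragm of mdx5cv and diaphragm of mdx5cv/Ccr2-/-.

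After filters on depth and doublets, the libraries kept 4965, 6362, 11193 and 6049 cells with median depths of 5857 to 8962 unique molecular identifiers (UMIs). Ccr2 was counted at 253, 15.5, 137 and 8.55 counts per 1000000 UMIs (CPM), low in both libraries labelled mdx5cv/Ccr2-/-. Which part of Ccr2 was deleted is not given in the sources used here. Of the kept cells, 76 had a barcode that also occurred in another library. Cells were assigned to a class by counting markers: a cell entered a gate when it held UMIs of at least 3 of the 8 markers of that class and of more markers than of any other class. Between 3.47% and 8.10% of cells per library entered no gate. A gate is a set of cells that share markers and is named for them. A level is the summed UMIs of a gene over the cells of a gate on the same scale, divided by the UMIs of that gate, given for gates with at least 20 cells. FAP stands for fibro-adipogenic progenitor, the resident mesenchymal cell of muscle.

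On the GRCm38 assembly (mm10), Lgals1 (ENSMUSG00000068220) lies on the plus strand at chr15:78926725-78930465. Lgals3 (ENSMUSG00000050335) lies on the plus strand at chr14:47367751-47386160. Both Lgals9 (ENSMUSG00000001123, chr11:78962974-78984946) and Lgals3bp (ENSMUSG00000033880, chr11:118392751-118402092) lie on the minus strand of chromosome 11. Lgals8 (ENSMUSG00000057554) lies on the minus strand at chr13:12439415-12464944 and overlaps Heatr1 on the plus strand. The Lgals9 promoter is printed because Lgals9 was one of the members that differed with genotype in macrophages, beside genes of the interferon response described further on. The RefSeq promoter table for GRCm38.p6 held 4 of the 5 members, with no entry for Lgals1. The motif searched, on both strands, was GAAANNGAAA, the spaced repeat that interferon regulatory factors are known to recognise. A second motif, TTCNNNGAA, which STAT factors are known to recognise, was searched in the same way. It occurred in 2726 windows (8.3%) and in 3 of the 12 interferon-list promoters described next, and in no member. The first motif occurred in 1131 of 32851 promoter windows of 300 bases, which is 3.44%. Of the 16 genes of the interferon list used below, 12 had a promoter in the table and 7 of these held it. For both motifs a list gene counted when any of its windows matched, while the percentages are shares of single windows. Lgals9 held 2 matches, both read on the opposite strand, and Lgals3, Lgals3bp and Lgals8 held none in this window. The windows of Lgals3 (chr14:47373610-47373909) and Lgals8 (chr13:12461689-12461988) lie inside the annotated genes. Other starts of these genes were not searched. The first Lgals9 match lies 55 to 46 bases before the RefSeq start and the second 15 to 24 bases after it. These positions count from the RefSeq start and not from the end of the first stretch printed below. The matches are in capitals. The first is in the stretch at chr11:78984947-78985174 (minus strand), which ends where the annotated gene begins. The second is in the 28 bases after the RefSeq start at chr11:78984897-78984924.
Lgals9 upstream: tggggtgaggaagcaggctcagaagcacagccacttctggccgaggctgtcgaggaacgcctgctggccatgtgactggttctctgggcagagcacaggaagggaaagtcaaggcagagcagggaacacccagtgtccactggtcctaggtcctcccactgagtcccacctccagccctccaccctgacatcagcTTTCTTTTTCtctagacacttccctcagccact
Lgals9 after the start: gccaaatagctgtggTTTCTGTTTCcta
A match is a run of letters and not a measured binding site.

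Each member had its own order of cell classes. By the mean over the 4 libraries, Lgals1 was highest in the gate of muscle stem cells and myoblasts, and Lgals3 and Lgals3bp in macrophages. Lgals9 was highest in endothelial cells with macrophages next, and these overlapped. For Lgals8, endothelial cells (mean 59.5 CPM), macrophages (58.0 CPM) and pericytes (56.0 CPM) overlapped, with no highest gate shared by the libraries. The plot of levels by gate shows these orders with the 4 libraries side by side.

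**Figure D1:**
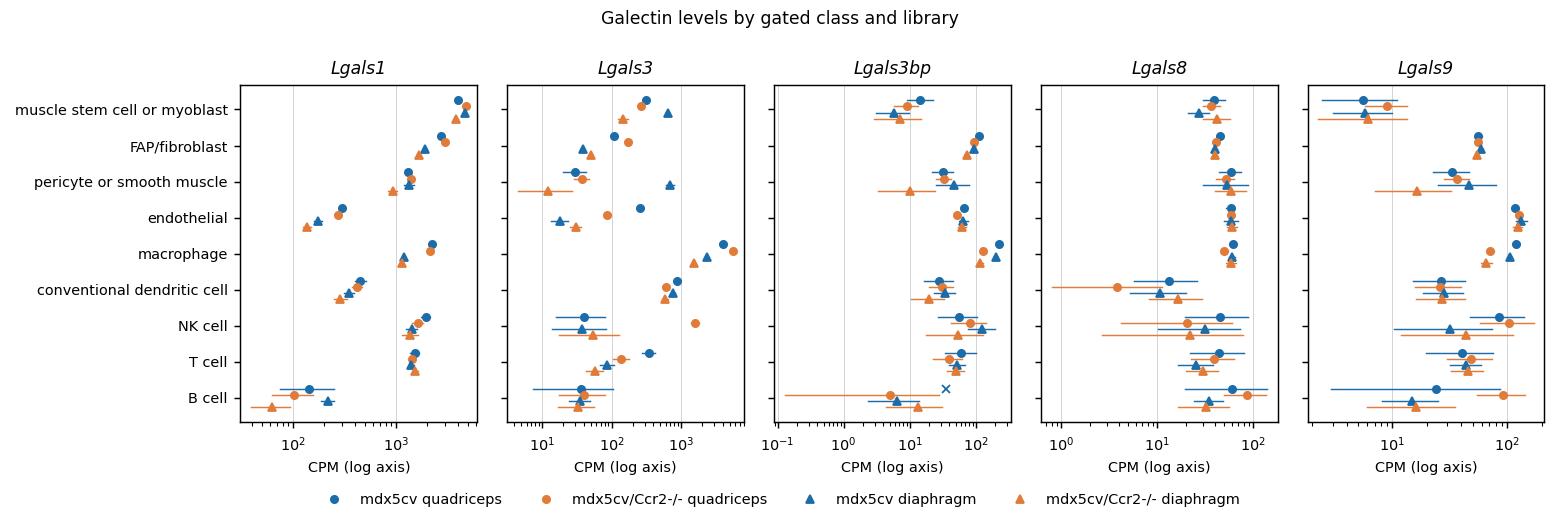
Level of each gene (CPM, log axis) in 9 gates, with 1 point per library and 95% Poisson intervals that cover counting error only. Blue is mdx5cv and orange mdx5cv/Ccr2-/-, circles are quadriceps and triangles diaphragm, and a cross marks the upper limit where no UMI was counted. The orange points of Lgals3bp and Lgals9 lie below the blue points in macrophages, and the points of Lgals9 and Lgals8 nearly coincide in endothelial cells.

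Lgals1 was counted at 4053, 4797, 4671 and 3867 CPM in the gate of muscle stem cells and myoblasts, a mean of 4347 ± 456 (SD over the 4 libraries). The lowest of these libraries exceeded the highest library of every other gate in that comparison. FAPs and fibroblasts followed with 2773, 3013, 1938 and 1688 CPM, and macrophages with 2271, 2159, 1208 and 1150 CPM. The ranges of FAPs, macrophages, NK cells (mean 1598 CPM) and T cells (mean 1486 CPM) overlapped from one to the next. Pericytes were lower, with a mean of 1255 CPM, and did not overlap T cells. Dendritic cells (mean 378 CPM), endothelial cells (298, 272, 175 and 138 CPM) and B cells (mean 131 CPM) were at the bottom, and no library of these 3 gates reached a pericyte library.

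Within the muscle stem cell and myoblast gate, the cells with markers of quiescence (Pax7, Calcr and others) had a mean Lgals1 level of 3633 CPM. Committed myoblasts, with Myog, Mymk and other fusion and sarcomere genes, were numerous enough in only 2 libraries, with 6202 CPM over 41 cells of mdx5cv/Ccr2-/- quadriceps and 5869 CPM over 36 cells of mdx5cv diaphragm. Both values stood above every library of the quiescent-type cells. Median depths were 19629 and 13759 UMIs in these committed myoblasts, against 6099 to 7931 in quiescent-type cells, and the part of depth was not tested. Within FAPs, Lgals1 was 3902, 3755, 3709 and 2957 CPM in activated-type fibroblasts, which are marked by Cthrc1, Tnc, Postn and Lrrc15. It was 2120, 1563, 1475 and 1288 CPM in resting-type and 1333, 1088, 1054 and 997 CPM in adventitial-type fibroblasts. The activated-type level was the highest of the 3 in each library. With cells thinned to 2000 UMIs each, so that marker counts did not follow depth, Lgals1 went from 2013, 1556, 1255 and 1171 CPM in FAPs with no activated-type marker to 3579, 3970, 3718 and 3057 CPM in those with 4 or more, whose median depths were 14345.5 to 22737 UMIs against 5536 to 9797.

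Lgals3 was counted at 3971, 5580, 2347 and 1516 CPM in macrophages, from 64113, 63267, 30247 and 7296 UMIs. Macrophages had the highest level in each library among the gates with at least 20 cells in all 4, and their mean was 3353 ± 1800 CPM (SD over the 4 libraries). Classical monocytes, the circulating precursors marked by Ly6c2 and Plac8, had 2581 CPM over 191 cells in mdx5cv quadriceps and 3412 CPM over 75 cells in mdx5cv diaphragm, where they stood above macrophages. They had 1454 CPM over 24 cells in mdx5cv/Ccr2-/- quadriceps and were too few in the mdx5cv/Ccr2-/- diaphragm. This gate borders on macrophages. In mdx5cv quadriceps, mdx5cv diaphragm and mdx5cv/Ccr2-/- quadriceps, 74.9%, 62.7% and 33.3% of its cells held at least 2 macrophage markers. In the same order, 29.3%, 40% and 54.2% were only 1 marker ahead of another class. Dendritic cells followed with 875, 614, 764 and 580 CPM, and no dendritic cell library reached a macrophage library. In NK cells, 1 cell of mdx5cv/Ccr2-/- quadriceps held 210 of the 230 UMIs, and without it the level was 174 CPM in place of 1584 CPM.

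The spread of Lgals3 among macrophages followed their markers. Lipid-associated-type macrophages, marked by Spp1, Gpnmb, Trem2 and Fabp5, had 5305, 6640, 3366 and 2738 CPM. Resident-type macrophages, marked by Folr2, Cd163, Lyve1 and Mrc1, had 1155, 924, 655 and 478 CPM, below the lipid-associated-type cells of the same library in all 4. Macrophages with neither profile had 2272, 1913, 1331 and 1663 CPM. In cells thinned to 2000 UMIs, Lgals3 went from 1021, 750, 702 and 390 CPM with no lipid-associated-type marker to 6765, 8168, 4958 and 4029 CPM with 4 or more. The deposited depth moved with it, from median UMIs of 5749 to 9598 per cell with no such marker to 10166.5 to 17382 with 4 or more, and its part in the result was not tested. It went the other way with resident-type markers, from 5243, 7020, 3091 and 2739 CPM with none to 1316, 959, 407 and 578 CPM with 4 or more. At that depth, 92.8%, 92.4%, 85.6% and 84.4% of lipid-associated-type and 65.7%, 67.7%, 47.5% and 46.9% of resident-type macrophages held an Lgals3 UMI. In endothelial cells, a type that should hold little Lgals3, the thinned share was 5.70%, 6.03%, 3.02% and 1.90%. Lgals1 had no such order among macrophages, with means of 1747 CPM in lipid-associated-type and 1614 CPM in resident-type cells.

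**Figure D2:**
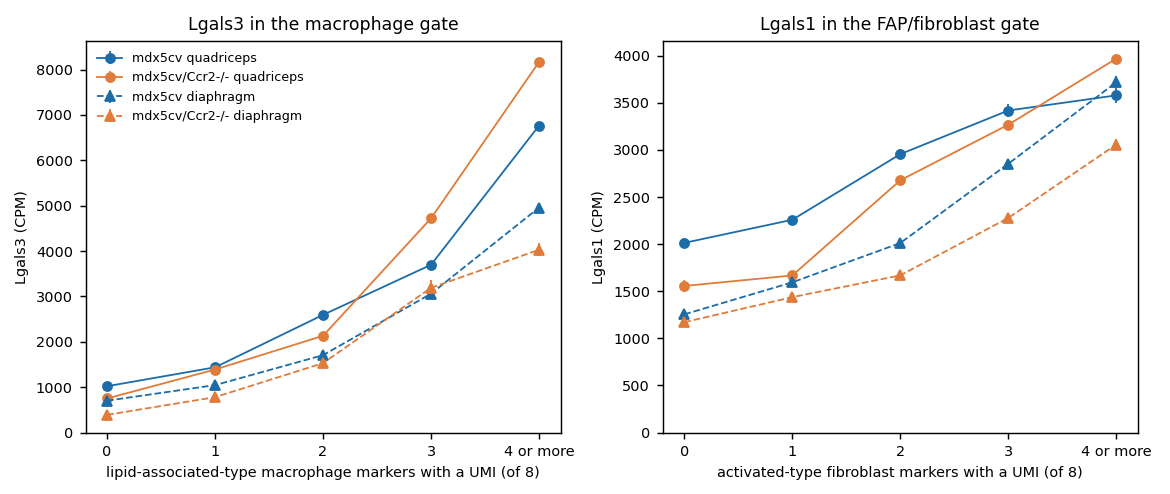
Left, Lgals3 level (CPM) in macrophages by the number of lipid-associated-type markers found in each cell after thinning to 2000 UMIs, with 1 line per library. Right, Lgals1 level in FAPs and fibroblasts by the number of activated-type markers. Each line ends higher than it starts, for example from 390 to 4029 CPM for Lgals3 in the mdx5cv/Ccr2-/- diaphragm.

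Lgals3bp was counted at 228, 128, 205 and 118 CPM in macrophages, a mean of 170 ± 54.7 (SD over the 4 libraries). The macrophage libraries did not overlap those of FAPs, which had 112, 94.1, 94.5 and 73.3 CPM. Endothelial cells had 66.6, 52.2, 65.5 and 62.4 CPM, and the gate of muscle stem cells and myoblasts had a mean of 9.14 CPM. With cells thinned to 2000 UMIs, 1.98% to 3.39% of muscle stem cells and myoblasts held a UMI, against 20.3% to 34.0% of macrophages.

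Lgals9 was counted at 117, 127, 133 and 124 CPM in endothelial cells, a mean of 125 ± 6.76 (SD over the 4 libraries). Macrophages had 118, 71.2, 105 and 65.9 CPM, so that the mdx5cv macrophage libraries lay close to the endothelial ones and the mdx5cv/Ccr2-/- ones far below them. FAPs had 56.1, 55.4, 59.0 and 54.3 CPM, and the muscle stem cell and myoblast gate had a mean of 6.61 CPM. Lgals8, which encodes a galectin known to mark broken vesicles for autophagy, was the most even member. It had 58.4, 59.5, 59.3 and 60.7 CPM in endothelial cells and 61.5, 50.5, 60.8 and 59.0 CPM in macrophages, which overlapped. FAPs had a mean of 41.8 ± 2.15 CPM, and dendritic cells, with a mean of 11.1 CPM, were the lowest gate.

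The effect of genotype was read as the ratio of mdx5cv/Ccr2-/- to mdx5cv levels within a muscle. A gene was measured in a gate when its mean level was at least 20 CPM with at least 50 UMIs in all. It was called higher or lower when the ratio, taken after adding 5 CPM to each level, passed 1.5-fold. In macrophages Lgals3bp and Lgals9 fell in both muscles, and Lgals3 fell in the diaphragm, while Lgals1 and Lgals8 did not pass the threshold in either muscle. Markers of classical monocytes moved with genotype in this gate: all 8 were counted, with a summed level of 333, 30.3, 252 and 28.9 CPM, and their part in the result was not tested. In quadriceps macrophages 2 of the 5 members were lower and 0 higher, against 2.35% of the 5415 measured genes lower and 2.99% higher. In diaphragm macrophages 3 of the 5 were lower and 0 higher, against 2.9% lower and 3.79% higher. The median log2 ratio of the members was -0.26 in quadriceps and -0.63 in diaphragm, beside 0.07 and 0.04 over the measured genes. Over all genes of the quadriceps macrophages, 162 were higher and 127 lower, and with median-of-ratios scaling 125 were higher and 169 lower.

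For Lgals3bp the mdx5cv/Ccr2-/- to mdx5cv ratio in macrophages was 0.562 (95% interval 0.529 to 0.598) in quadriceps and 0.578 (0.527 to 0.633) in diaphragm. For Lgals9 it was 0.601 (0.553 to 0.653) and 0.625 (0.551 to 0.707). Both calls held in both muscles under the 7 alternative settings that could change them. The other 2, the filter on low counts and the step on non-immune gates, leave these ratios as they are. For Lgals1 the ratios were 0.951 (0.936 to 0.966) and 0.952 (0.923 to 0.982), and for Lgals8 0.822 (0.740 to 0.912) and 0.970 (0.844 to 1.11). With macrophages thinned to 2000 UMIs, 34.0%, 22.5%, 30.9% and 20.3% held an Lgals3bp UMI and 19.4%, 11.6%, 15.7% and 7.89% an Lgals9 UMI, again lower in both mdx5cv/Ccr2-/- libraries.

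The lower Lgals3bp level was present in both macrophage subsets. In resident-type macrophages Lgals3bp had 182, 116, 182 and 104 CPM, with ratios of 0.634 and 0.569, and in lipid-associated-type macrophages 247, 131, 214 and 131 CPM, with ratios of 0.528 and 0.614. Of the genes measured, 5.88% and 2.55% were called lower in resident-type cells of quadriceps and diaphragm, and 2.15% and 2.99% in lipid-associated-type cells. Lgals9 had 145, 77.7, 99.5 and 69.6 CPM in resident-type macrophages, where the quadriceps ratio of 0.535 passed the threshold and the diaphragm ratio of 0.699 did not. In lipid-associated-type macrophages it had 107, 69.5, 110 and 64.9 CPM, with ratios of 0.650 and 0.588 that both passed, the first no longer with gates of at least 4 markers or a margin of 2. Holding the levels of each subset and changing only the subset shares gave ratios of 1.04 and 0.966 for Lgals3bp and 0.956 and 0.984 for Lgals9. Holding the shares and changing only the levels gave 0.553 and 0.611 for Lgals3bp and 0.612 and 0.606 for Lgals9.

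The genotype ratio of Lgals3 lay above 1 in quadriceps macrophages and below 1 in diaphragm macrophages. The macrophage ratio was 1.41 (1.39 to 1.42) in quadriceps, which did not pass 1.5-fold, and 0.646 (0.630 to 0.663) in diaphragm, which did. When a gate needed 2 more markers than any other, the diaphragm log2 ratio was -0.53 and no longer passed. The subset ratios were closer to 1, at 0.80 and 0.730 in resident-type and 1.25 and 0.813 in lipid-associated-type macrophages, and none of these 4 passed. The share of lipid-associated-type cells among macrophages was 56.7%, 69.9%, 49.1% and 31.7%, and that of resident-type cells 31.2%, 21.2%, 35.5% and 57.8%. Changing only these shares gave Lgals3 ratios of 1.15 in quadriceps and 0.785 in diaphragm, and changing only the levels gave 1.20 and 0.838. The per-cell distribution moved with the sums, with median Lgals3 levels per macrophage of 1517, 1936, 787 and 455 CPM.

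**Figure D3:**
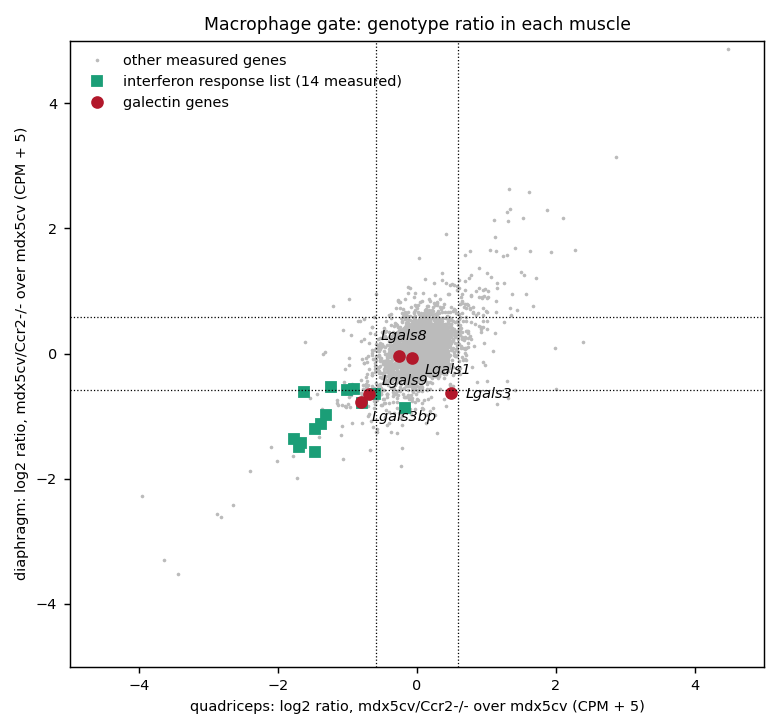
Log2 ratio of mdx5cv/Ccr2-/- to mdx5cv levels in macrophages, in quadriceps (x axis) and diaphragm (y axis), 1 point per measured gene, with the members and the interferon list marked. Dotted lines mark 1.5-fold. Lgals3bp and Lgals9 lie past the line in both muscles, at -0.81 and -0.77 for Lgals3bp and -0.70 and -0.64 for Lgals9, while Lgals3 lies to the right of 0 in quadriceps and below the line in diaphragm.

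The interferon response list, 16 genes chosen with its behaviour in these libraries already known, is given beside the members and is not independent evidence of a direction. Of its 14 genes measured in macrophages, 13 were lower in quadriceps and 11 in diaphragm, with none higher, and the list medians were -1.35 and -0.92 on the log2 scale. Ifit3, an interferon-induced inhibitor of translation of foreign RNA, had 64.5, 16.5, 77.8 and 24.5 CPM. Isg15, a ubiquitin-like modifier, had 133, 38.5, 129 and 44.7 CPM. Irf7, the transcription factor that amplifies the type I interferon response, had 98.8, 32.5, 88.4 and 26.4 CPM. Zbp1, a sensor of Z-form nucleic acids, had 82.6, 26.6, 75.4 and 29.9 CPM. Ifit2 and Oasl2 completed the 6 genes of the list with the largest changes, at 72.1, 17.6, 88.8 and 31.6 CPM and 81.6, 28, 96.1 and 41.6 CPM. These 6 were named for being lower in both muscles, so that their direction is fixed by the choice. In FAPs 0 of 10 measured interferon genes passed the threshold in quadriceps and 1 was lower in diaphragm, and in endothelial cells 0 and 1 of 14 were lower.

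The other lists of the galectin pathway moved little in macrophages. Of 14 measured genes for glycoproteins that galectins are known to bind, none passed in quadriceps, and in diaphragm Fn1, which encodes fibronectin, was lower at a ratio of 0.442. Of 17 measured genes for enzymes that build or cap the galactose-bearing glycans, Mgat4a was higher in quadriceps at 1.66-fold and C1galt1, the core O-glycan galactosyltransferase, in diaphragm at 1.86-fold. Of 11 measured genes for the handling of damaged vesicles, none passed in either muscle. Fn1, Mgat4a and C1galt1 are named here because they were the sole members of their lists past the threshold, and were chosen after their values were seen.

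Outside macrophages, Lgals1, Lgals3bp, Lgals8 and Lgals9 did not pass the threshold by genotype in FAPs or endothelial cells of either muscle. In FAPs 2.73% of measured genes were lower and 2.41% higher in quadriceps, and 0.515% and 0.309% in diaphragm. In endothelial cells 0.701% were lower and 0.584% higher in quadriceps, and 1.75% and 0.834% in diaphragm. The quadriceps endothelial calls were 35 higher and 42 lower, and 23 higher and 51 lower with median-of-ratios scaling. The ratios of Lgals3bp were 0.841 (0.790 to 0.894) and 0.776 (0.742 to 0.811) in FAPs, and those of Lgals9 were 0.987 (0.908 to 1.07) and 0.920 (0.872 to 0.971). In endothelial cells Lgals9 had ratios of 1.09 (0.999 to 1.18) and 0.932 (0.813 to 1.07). Endothelial Lgals3bp, without leukocyte-marked cells, had ratios of 0.777 (0.688 to 0.878) in quadriceps and 0.948 (0.776 to 1.16) in diaphragm. The difference between the macrophage ratio and the ratio in these gates has no replicate check. The Lgals1 ratios in FAPs were 1.09 in quadriceps and 0.871 in diaphragm. In quadriceps the subset ratios were 0.962 in activated-type, 0.737 in resting-type and 0.782 in other FAPs, all below 1, and activated-type cells were 203 of 1095 FAPs in mdx5cv and 742 of 1618 in mdx5cv/Ccr2-/-. In the muscle stem cell and myoblast gate the Lgals1 ratios were 1.18 (1.15 to 1.22) and 0.828 (0.798 to 0.859), neither past the threshold. Lgals3bp and Lgals9 were lower outside macrophages too, in diaphragm pericytes, where 10.5% of measured genes were lower. Their ratios of 0.218 (0.0610 to 0.653) and 0.350 (0.126 to 0.910) rest on 13 and 5 UMIs and on 13 and 8 UMIs, and with the mean of per-cell CPM the log2 ratio of Lgals3bp was -0.17 and not called. Lgals8 was lower in diaphragm adventitial-type fibroblasts at 0.624 (0.459 to 0.845), where 2.09% of genes were lower, a call lost with a margin of 2 markers and without leukocyte-marked cells. It was higher in diaphragm quiescent-type muscle stem cells at 1.73 (1.07 to 2.81), from 36 and 38 UMIs, where 3.86% of genes were higher. In diaphragm B cells Lgals1 was lower at 0.285, from 205 and 23 UMIs, where 5.99% of measured genes were lower. Lgals3 was lower in quadriceps Schwann or glial cells at 0.297 (0.134 to 0.598), where 6.17% of measured genes were lower. This rests on 45 UMIs over 53 cells in mdx5cv and 10 UMIs over 50 cells in mdx5cv/Ccr2-/-. In quadriceps tenocytes, the cells of tendon marked by Tnmd and Scx, Lgals3bp, Lgals9 and Lgals3 were lower at 0.486, 0.586 and 0.525, where 2.38% of measured genes were lower. The first rests on 50 and 27 UMIs and the second on 43 and 28, and the log2 ratio of Lgals3 was 0.67, in the other direction, without doublet removal. None of the 3 was called with a margin of 2 markers, and 41.7% and 40.9% of these tenocytes in mdx5cv and mdx5cv/Ccr2-/- were only 1 marker ahead of another class. Over all genes of this gate 270 were higher and 128 lower, and with median-of-ratios scaling, which shifted the ratios by 0.10 on the log2 scale, 157 were higher and 190 lower.

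In some non-immune gates and libraries much of the Lgals3 rested on few cells. In FAPs it was 109, 171, 38.5 and 49.8 CPM, and in endothelial cells 254, 86.6, 18.0 and 30.7 CPM. One endothelial cell of mdx5cv quadriceps held 923 of the 1887 UMIs, 1 pericyte of mdx5cv diaphragm held 183 of 192, and 1 cell of the mdx5cv diaphragm muscle stem cell gate held 684 of 1442. Leaving out the 2.01% to 4.38% of FAPs that carried UMIs of at least 3 of 8 leukocyte genes removed 29.0%, 62.3%, 56.4% and 78.0% of their Lgals3 UMIs. This step was chosen after the data were seen. The FAP level was then 81.4, 66.8, 17.2 and 11.2 CPM, and the genotype ratio in quadriceps went from 1.57, called higher, to 0.820, not called. The diaphragm FAP ratio changed side too. With all cells the mdx5cv/Ccr2-/- level was the higher one, and without these cells the ratio was 0.652 (0.582 to 0.729), not called. Endothelial levels became 33.9, 29.9, 18.7 and 11.6 CPM, with ratios of 0.882 and 0.620 in place of 0.341 and 1.70. In quadriceps tenocytes and quadriceps Schwann or glial cells the step removed no Lgals3 UMI. The part of free RNA in the rest was not tested. All 8 macrophage markers were present in these gates, their summed level being 205 to 237 CPM in FAPs and 66.3 to 135 CPM in endothelial cells, against 11601 to 17158 CPM in macrophages.

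In the muscle stem cell and myoblast gate, leaving out leukocyte-marked cells removed 1.77%, 0%, 47.9% and 0% of Lgals3 UMIs. Its levels were 316, 266, 637 and 148 CPM with all cells and 311, 266, 342 and 148 CPM without the 3 such cells. Without those cells and per 100 UMIs of Lyz2, a lysozyme gene of myeloid cells, it held 840, 840, 1030 and 800 Lgals3 UMIs, against 32.9, 35.4, 16.2 and 10.3 in macrophages. The values of the muscle stem cell and myoblast gate rest on 53, 88, 73 and 18 Lyz2 UMIs. FAPs held 234, 253, 49.5 and 66.2, and endothelial cells 51.1, 54.3, 25 and 36.2, so both also exceeded macrophages in each library. Schwann or glial cells went the other way. In quadriceps of mdx5cv and mdx5cv/Ccr2-/- they held 12.5 and 2.5, below macrophages, from 359 and 400 Lyz2 UMIs. In the muscle stem cell and myoblast gate the genotype ratio of Lgals3 was 0.841 in quadriceps and 0.232 in diaphragm with all cells. Without the leukocyte-marked ones it was 0.854 and 0.432. In this gate 5.65% of measured genes were lower in diaphragm.

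**Figure D4:**
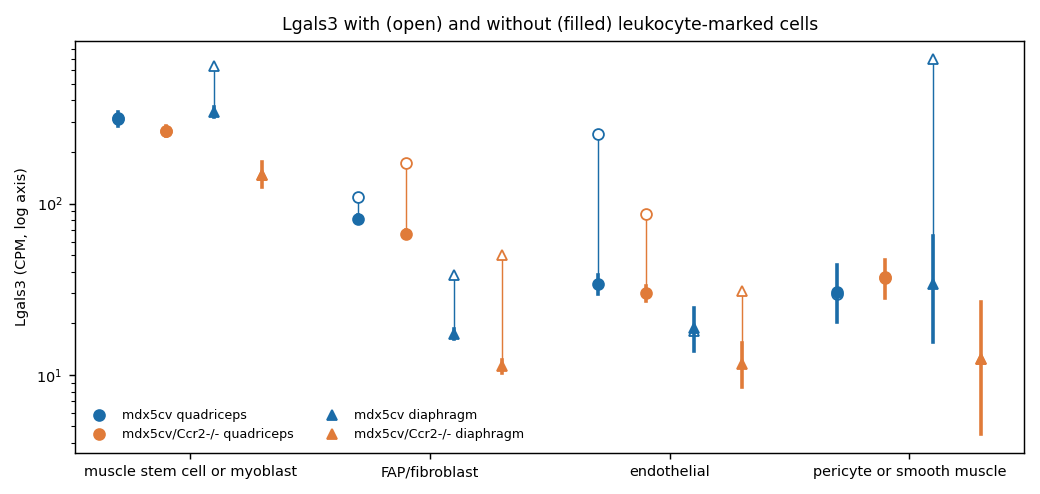
Lgals3 level (CPM, log axis) in muscle stem cells and myoblasts, FAPs, endothelial cells and pericytes or smooth muscle cells of each library. Open points are all cells, and filled points leave out cells carrying at least 3 of 8 leukocyte genes. The points move apart in FAPs, for example from 49.8 to 11.2 CPM in the mdx5cv/Ccr2-/- diaphragm. They also do so in endothelial cells other than those of the mdx5cv diaphragm (18.0 and 18.7 CPM). In the muscle stem cell gate only the mdx5cv diaphragm point moves far, from 637 to 342 CPM. In pericytes the mdx5cv diaphragm point moves from 694 to 34.0 CPM.

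Between muscles, read as the ratio of diaphragm to quadriceps, Lgals1 and Lgals3 were lower in diaphragm macrophages of both genotypes. For Lgals1 the mdx5cv value was 0.532 (0.522 to 0.542) and the mdx5cv/Ccr2-/- value 0.533 (0.517 to 0.548), and Lgals3 had 0.591 (0.583 to 0.599) and 0.272 (0.265 to 0.278). Thus 2 of 5 members were lower in each genotype, where 2.09% and 5.41% of measured genes were lower. Both genes were lower in each subset too, where 7.18% and 3.68% of genes were lower in resident-type and 1.64% and 5.22% in lipid-associated-type cells. In resident-type macrophages Lgals1 had 2493, 1869, 917 and 1176 CPM, and Lgals3 had diaphragm to quadriceps ratios of 0.567 and 0.517. In lipid-associated-type macrophages the Lgals1 ratios were 0.625 and 0.527 and the Lgals3 ratios 0.635 and 0.412. Lgals3bp (0.898 and 0.923), Lgals9 (0.890 and 0.925) and Lgals8 (0.989 and 1.17) did not pass the threshold between muscles in macrophages. Lgals3 was called lower in diaphragm FAPs and endothelial cells of both genotypes too. Its log2 ratios were -1.39 and -1.69 in FAPs and -3.49 and -1.36 in endothelial cells. In FAPs 6.07% and 5.29% of genes were lower, and in endothelial cells 1.89% and 2.05%. Without leukocyte-marked cells the Lgals3 ratios were 0.212 and 0.168 in FAPs and 0.551 and 0.387 in endothelial cells.

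Endothelial cells had less Lgals1 in diaphragm than in quadriceps, at 0.587 for mdx5cv and 0.506 for mdx5cv/Ccr2-/-, where 1.89% and 2.05% of genes were lower. The mdx5cv call was lost under 3 of the 9 alternatives, with log2 ratios between -0.77 and -0.12 over them. Markers of lymphatic endothelium moved with muscle in this gate: all 8 were counted, and their summed level was 332, 185, 4021 and 2133 CPM. Cells in the lymphatic gate of the mdx5cv diaphragm had 107 CPM of Lgals1, and the part of lymphatic cells in the difference was not tested. In FAPs the Lgals1 ratio was 0.699 in mdx5cv, which did not pass, and 0.560 in mdx5cv/Ccr2-/-, which did, where 6.07% and 5.29% of genes were lower. Within mdx5cv/Ccr2-/- no FAP subset passed, with Lgals1 ratios of 0.787 in activated-type, 0.824 in resting-type and 0.890 in other FAPs. Activated-type cells, the subset with the most Lgals1, were 742 of 1618 FAPs in quadriceps and 431 of 4027 in diaphragm of this genotype. The muscle stem cell and myoblast gate had ratios of 1.15 and 0.806, neither past the threshold. The mdx5cv FAP call of Lgals3 was lost without doublet removal and the mdx5cv/Ccr2-/- endothelial call with a margin of 2 markers. The genotype comparisons and the muscle comparisons share their 4 libraries.

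The level over all kept cells of a library holds both the shares of the gates and the levels within them. Lgals3 was 1578, 1296, 533 and 183 CPM, the mdx5cv/Ccr2-/- diaphragm being lowest, with genotype ratios of 0.822 (0.813 to 0.830) and 0.343 (0.336 to 0.350). Lgals3bp was 131, 78.4, 106 and 72.2 CPM, with ratios of 0.596 (0.574 to 0.619), called lower, and 0.681 (0.656 to 0.707), not called. Lgals1 (2075, 2165, 1744 and 1543 CPM), Lgals8 (52.1, 46.1, 43.5 and 42.6 CPM) and Lgals9 (84.6, 68.6, 66.7 and 57.8 CPM) did not pass by genotype. Thus 1 of 5 members was lower in each muscle, where 4.04% and 3.89% of measured genes were lower. Changing only the gate shares gave Lgals3 ratios of 0.642 in quadriceps and 0.524 in diaphragm, and changing only the levels within gates gave 1.30 and 0.616. For Lgals3bp the shares alone gave 0.847 and 0.914 and the levels alone 0.649 and 0.706.

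The cells that carried the transcripts followed. Macrophages were 24.4%, 13.3%, 15.9% and 7.24% of cells and held 81.0%, 82.7%, 74.2% and 66.2% of Lgals3 UMIs. FAPs were 22.1%, 25.4%, 59.5% and 66.6% of cells and held 45.1%, 56.5%, 73.5% and 83.5% of Lgals1 UMIs. The macrophage share of Lgals3bp UMIs was 55.8%, 31.4%, 32.6% and 13.1%, and FAPs held 28.8%, 48.7%, 59.0% and 77.5%. For Lgals9 macrophages held 45.0%, 19.9%, 26.6% and 9.11%, and endothelial cells 20.5%, 39.5%, 7.10% and 14.5%. The largest source of Lgals3bp and of Lgals9 UMIs was thus macrophages in mdx5cv quadriceps and FAPs in both diaphragms.

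**Figure D5:**
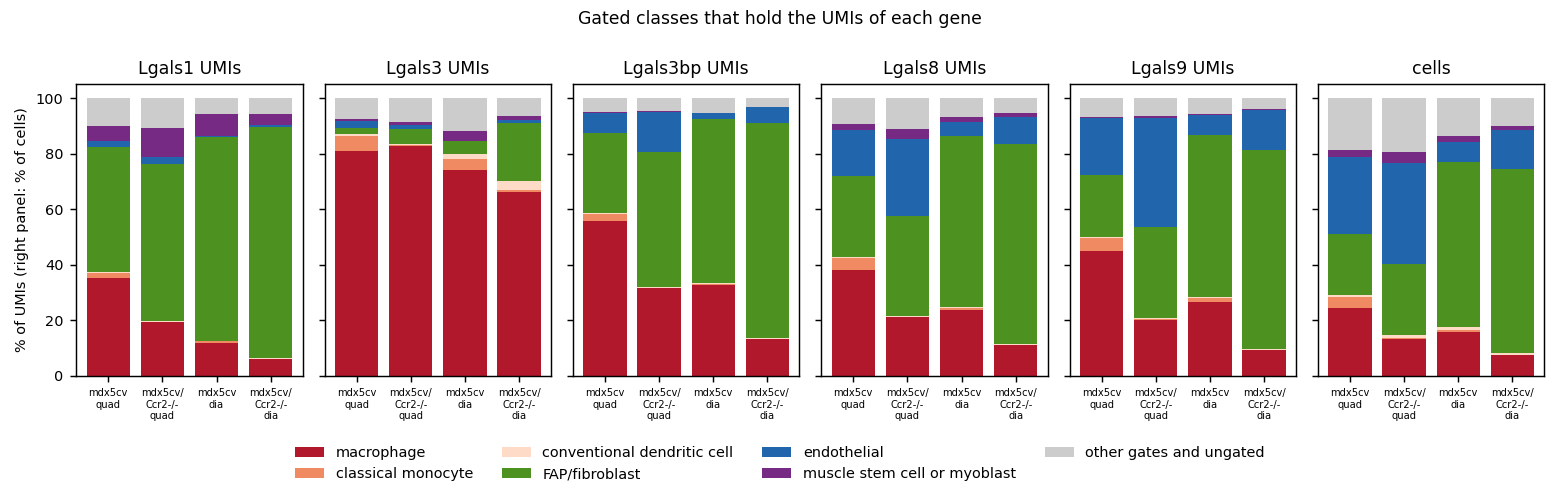
Percent of the UMIs of each gene contributed by each gate in each library, stacked, with the percent of cells in the right panel for reference. Macrophages hold 66.2% to 82.7% of Lgals3 UMIs in the 4 libraries but 7.24% to 24.4% of the cells.

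Across 20 profiles, those of 5 gates in the 4 libraries, the gene whose log2 level was most like that of Lgals9 among 6444 genes was Sp100, which encodes a nuclear body protein, at a Pearson r of 0.967. For Lgals3bp Tmem50a (r of 0.942) came first, followed by Ifi27l2a (0.928), an interferon-induced gene. For Lgals1 it was Cd63 (0.951), which encodes an endolysosomal tetraspanin, for Lgals3 Rcbtb2 (0.919), followed by Cstb and Tcirg1, and for Lgals8 Entpd1 (0.910), which encodes the ectonucleotidase CD39. Among the members, Lgals3bp and Lgals9 had an r of 0.857, Lgals8 and Lgals9 0.697, and Lgals1 and Lgals3 0.376, whereas Lgals1 had -0.710 with Lgals8 and -0.703 with Lgals9. These values are a description, since profiles of 1 library share its preparation and profiles of 1 gate share its cell type.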

How the data were processed

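The 4 matrices were analysed, 1 per library. The values the authors deposited are raw UMI counts per gene and barcode, made with Cell Ranger 6.1.2 on mm10, per the submitters' processing notes. The deposited counts come from a 3′ kit, per the labels' protocol, so most reads lie near transcript ends and gene length does not scale a count. Of 33554 barcodes, 31077 passed minimums of 500 UMIs and 300 genes and a mitochondrial limit of 15%. The 2508 barcodes with the highest Scrublet scores (scanpy 1.11.5, 0.8% per 1000 barcodes) were left out, and 28569 cells remained. Cells were gated by 15 sets of 8 markers. Subsets within macrophages, FAPs and muscle stem cells (7 sets) needed 2 of 8 markers. UMIs were summed per library and gate and divided by the gate total (Python 3.11.15, numpy 2.4.6, scipy 1.17.1, pandas 2.3.3, matplotlib 3.10.9). Intervals at 95% were exact Poisson for levels and conditional binomial for ratios, and a ratio needed 50 cells in both libraries. Counts for macrophages were simulated with 200 genes changed 2-fold. The 1.5-fold rule called 100% of raised and 100% of lowered genes in quadriceps (5374 genes). In diaphragm (5366 genes) it called 100% and 96.8%, and 0% of unchanged genes were called in both. The simulated libraries were drawn from the pooled profile of the 4 libraries with counting error only. They hold no variation between animals or preparations, so the 0% is not an error rate for the real comparisons.

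All 5 members are named. Of the lists, up to 6 genes are named, those with the largest mean change among genes past 1.5-fold in the same direction in both muscles in macrophages or FAPs. For likeness, the 4 genes with the highest Pearson r were found. The members, markers and lists were chosen with earlier results of these data known. UMIs count molecules, but cells of 1 library are not replicates. The 9 alternatives are given in the closing section. Clustering was not used, and protein sequences were not used here.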

Additional observations from a re-analysis of the deposited data

Results flagged for a closer look

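Each value below is a pair of mdx5cv/Ccr2-/- to mdx5cv ratios that lay on opposite sides of 1 in quadriceps and diaphragm, with 95% counting intervals that excluded 1 in both. In each case the difference between the muscles was not tested, since each ratio rests on 1 library per group. In macrophages Lgals3 had a ratio of 1.41 in quadriceps and 0.646 in diaphragm. In FAPs Lgals1 had 1.09 and 0.871, while in quadriceps the 3 subset ratios were below 1 (0.962, 0.737 and 0.782) and activated-type cells were 203 of 1095 FAPs in mdx5cv and 742 of 1618 in mdx5cv/Ccr2-/-. In the gate of muscle stem cells and myoblasts Lgals1 had 1.18 and 0.828. In endothelial cells Lgals3 had 0.341 and 1.70, which became 0.882 and 0.620 when leukocyte-marked cells were left out.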

How the results depend on the processing

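No paired analysis was possible because each group held 1 library and no replicate numbers pair the groups. For the same reason no library could be left out. Lgals3bp and Lgals9 were below the minimum level of 20 CPM in muscle stem cells and myoblasts, and values resting on few UMIs, such as those in pericytes, are limited by depth. The 9 alternatives moved 8 of 415 mean levels by more than the spread over libraries, moved 289 of 2420 log2 ratios and reversed 15, and at 1000 UMIs 30 of 45 thinned shares moved. Of galectin values past 1.5-fold over the gates, quadriceps by genotype had 1 higher, which was 2 with median-of-ratios scaling, 0 with at least 4 markers, 4 without doublet removal, 2 without the low-count filter and 0 without leukocyte-marked cells. It had 7 lower, which was 3 with a margin of 2 markers (of 26 values) and 11 without the filter (of 40 values). The 1 higher and 7 lower were out of 31 values. Over all measured genes 0.584% to 11.3% were higher and 0.701% to 30.5% lower, depending on the gate. Diaphragm by genotype had 1 higher, which was 0 with the mean of per-cell CPM, 2 with at least 4 markers, 2 with the margin of 2, 0 without doublet removal, 2 with a pseudocount of 1 CPM, 2 without the filter and 0 without leukocyte-marked cells. It had 8 lower, which was 5 with at least 1000 UMIs and at most 10% mitochondrial UMIs (of 26 values). The 1 higher and 8 lower were out of 31 values. Over all measured genes 0.309% to 13% were higher and 0.515% to 10.5% lower, depending on the gate. Between muscles mdx5cv had 3 higher, which was 0 with the margin of 2 and 1 without leukocyte-marked cells. It had 5 lower, which was 3 without doublet removal. The 3 higher and 5 lower were out of 28 values. Over all measured genes 3.69% to 11.1% were higher and 1.89% to 15.8% lower, depending on the gate. In mdx5cv/Ccr2-/- 0 were higher, which was 1 without the filter, and 14 were lower, out of 31 values. Over all measured genes 2.44% to 13.7% were higher and 2.05% to 15.8% lower, depending on the gate. The log2 ratios that reversed were of Lgals3 except where said. With per-cell CPM they were -0.19 in diaphragm endothelial cells, -0.056 in diaphragm resting-type fibroblasts and 0.049 for Lgals3bp between muscles in mdx5cv/Ccr2-/- pericytes. With the margin of 2 they were 0.0048 in quadriceps tenocytes and -0.29 and -0.66 in quadriceps and diaphragm resting-type fibroblasts. Without doublet removal they were 0.67 in quadriceps tenocytes, -1.70 in diaphragm endothelial cells, -0.75 in diaphragm resting-type fibroblasts and 0.34 between muscles in mdx5cv activated-type fibroblasts. Without leukocyte-marked cells they were -0.27 in quadriceps FAPs, -0.34 in quadriceps resting-type fibroblasts, -0.62 in other quadriceps FAPs, -0.51 in diaphragm endothelial cells and -0.50 in diaphragm resting-type fibroblasts. The Lgals3 ratio of diaphragm FAPs, not called with all cells, is not counted among these. It also changed direction without leukocyte-marked cells, to -0.45. The cause of these moves was not tested.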

Other observations

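Among 8 other galectin or galectin-related genes looked for, 6 were rows of the matrix and Lgals6 and Clc were not analysed here. Lgalsl, which encodes a galectin-related protein without known sugar binding, was the most counted of them, at 34.5, 47.7, 35.2 and 43.5 CPM over all cells. Its level was 363, 409, 495 and 507 CPM in pericytes and smooth muscle cells. Lgals2, Lgals4, Lgals7, Lgals12 and Grifin were at most 2.62 CPM in any library. In mesothelial cells, gated in sufficient number in the mdx5cv diaphragm, Lgals3bp was 177 CPM and Lgals1 2093 CPM.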
